A study of Mus musculus with 4 samples.

Results

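The laminin chains are the subunits of the laminins, the large cross-shaped glycoproteins of basement membranes. The 9 laminin chain genes described here were taken by symbol, Lama1 to Lama5, Lamb1 to Lamb3 and Lamc1. They come out of 22564 genes listed for pancreatic islets of newborn mice, of which 16121 had at least 1 fragment over the 4 libraries. Transcripts were measured by RNA sequencing at postnatal day 0 in strain 129sv, in 2 libraries labelled Mettl3/14nKO and 2 labelled wild-type. Mettl3 and Mettl14 form the enzyme core that places N6-methyladenosine (m6A) on RNA. The table holds transcript levels and no methylation. The labels name the genotype and give neither the driver of the deletion nor whether animals were pooled. Nor do they state separate animals for the replicates, so each p-value reflects the spread among these libraries alone, and that spread may be technical.

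Each laminin is a trimer of an alpha, a beta and a gamma chain joined along a coiled coil, and the alpha chain carries the domains that bind integrins and dystroglycan on cells. Polymerised laminin is a scaffold of the basement membrane, to which collagen IV, nidogens, perlecan and agrin are added. Islets are known to lie on basement membrane that is made largely by their capillaries, and mouse beta cells adhere to it through integrins.

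The fragments recovered from the deposited counts were few, with 1216498 and 744016 in the Mettl3/14nKO libraries and 1255526 and 1617429 in the wild-type libraries. These totals cover fragments assigned to genes and are not numbers of reads sequenced. The targeted genes had few fragments in all libraries and did not pass the test. Mettl3 had 30 and 9 fragments in the knockout libraries, against 20 and 47 in the wild-type ones, and overlapped in CPM (edgeR adjusted p = 0.85). In FPKM, a level per kilobase of transcript, both knockout libraries (6.95 and 5.86) lay below both wild-type ones (8.4 and 14.5). So did 35.3% of all genes with a mean of at least 1 FPKM. Mettl14 had 24 and 12 fragments in the knockout libraries, against 32 and 54 in the wild-type ones, with both Mettl3/14nKO libraries below both wild-type libraries in CPM (edgeR adjusted p = 0.31). The labels are thus not checked by a called change of either gene. All 15 endocrine markers were detected, at a summed 59048 and 73832 CPM (fragments scaled to a common library total) in Mettl3/14nKO and 96203 and 98504 CPM in wild-type islets. Ins2, Ins1 and Gcg made up most of each sum. By edgeR 0 of the 15 were called higher and 5 lower, against 2.08% and 1.6% of all genes tested. Fitted values were positive for 6 and negative for 9 of them. The 9 laminin chains together took 1235 and 501 fragments in the knockout libraries and 1413 and 1475 in the wild-type ones, which is 1015 and 673 CPM in Mettl3/14nKO and 1125 and 912 CPM in wild-type islets. The summed CPM of the groups overlapped, and Mettl3/14nKO replicate 2, the library with the fewest fragments, was the lowest of the 4.

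The question put by the design is whether these chains differ between Mettl3/14nKO and wild-type islets, and none of the 9 passed the test. With edgeR's quasi-likelihood test on fragments, adjusted over all 10969 genes tested, 0 chains had an adjusted p under 0.05, where 3.67% of all genes were called, 2.08% higher and 1.6% lower. Lamc1, the common gamma chain, was closest, with a fitted fold of 0.646 (0.507 to 0.823). Lamb3 and Lama1 had the largest positive values, with fitted folds of 2.78 and 2.68 from few fragments. The unadjusted p was under 0.05 for 3 chains (Lama1, Lamb3 and Lamc1), against 15.9% of all genes. DESeq2 called 0 of 9 chains, against 1.03% of the 13937 genes to which it gave an adjusted p, 0.667% higher and 0.359% lower. At an unadjusted p under 0.05 it had 1 chain, against 4.66% of all genes. With limma on log2(FPKM + 1), 0 of the 7 chains with a mean of at least 1 FPKM were called, as were 0 of all 12231 such genes (0%), so that count is no result about the chains. At an unadjusted p under 0.05 limma had 1 chain, against 12.1% of those genes. The fitted log2 fold changes had a median of 0.16 over the 9 chains and 0.00 over all genes tested, with 6 chains positive and 3 negative. In CPM both Mettl3/14nKO libraries lay above both wild-type libraries for Lama1, Lama3 and Lamb3, and below both for Lama4 and Lamc1. That is 5 of 9 chains without overlap, against 45.2% of all genes tested, 22.6% in each direction. In FPKM both Mettl3/14nKO libraries lay above both wild-type libraries for Lama1 and below both for Lama4 and Lamc1, where 9.82% of genes with a mean of at least 1 FPKM, a mean that Lama1 does not reach, lay above and 35.3% below. In bulk islets, fewer cells of a type and less RNA per cell cannot be told apart.

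**Figure D1:**
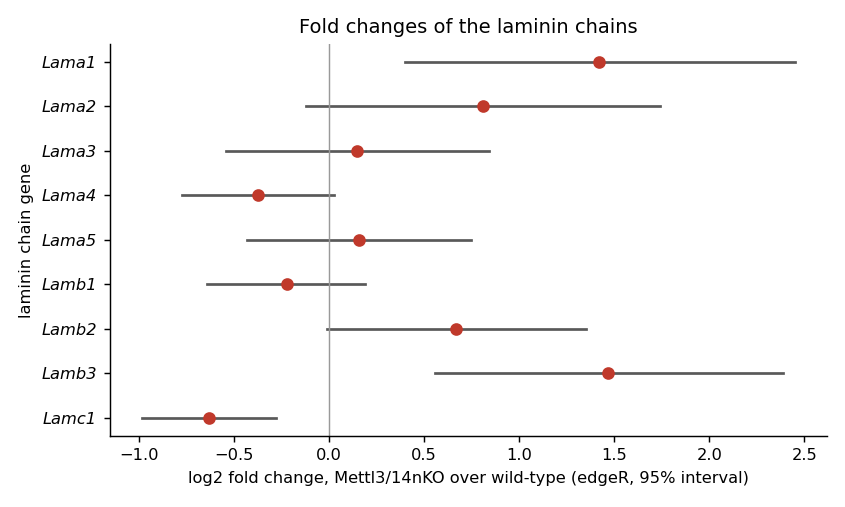
Fitted log2 fold change of Mettl3/14nKO over wild-type for the 9 laminin chains, with 95% intervals from edgeR (2 libraries a group). The unadjusted intervals of Lama1, Lamb3 and Lamc1 lie apart from 0, and none of the 9 genes passed after adjustment over all genes.

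In FPKM, a level per kilobase of transcript that allows genes to be compared, the order of the most abundant chains was Lamc1, Lamb1 and Lama4 in all 4 libraries. Lamc1 averaged 25.1 ± 2.41 FPKM in Mettl3/14nKO and 37.8 ± 2.27 FPKM in wild-type islets (SD, n = 2 each). Lamb1 averaged 14 ± 4.66 FPKM in Mettl3/14nKO and 18.7 ± 2.95 FPKM in wild-type islets. Lama4 averaged 7.06 ± 2.73 FPKM in Mettl3/14nKO and 11.1 ± 0.812 FPKM in wild-type islets. Within each group the ranges of these 3 chains did not overlap. Below them, neighbours in the order mostly overlapped. In Mettl3/14nKO islets the ranges of Lama4 and Lama5, Lama5 and Lamb2, Lamb2 and Lamb3, Lamb3 and Lama2, and Lama3 and Lama1 overlapped. In wild-type islets Lama5 lay below Lama4 and above Lamb2, Lama1 lay below Lama3, and the neighbours Lamb2 and Lamb3, Lamb3 and Lama2, and Lama2 and Lama3 overlapped. Against all 22564 genes of the table, those without fragments included, Lamc1 ranked 1354 and 1300 in the Mettl3/14nKO and 790 and 1030 in the wild-type libraries. Lama1 ranked 12816 and 11555 in the knockout and 13389 and 13582 in the wild-type ones.

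**Figure D2:**
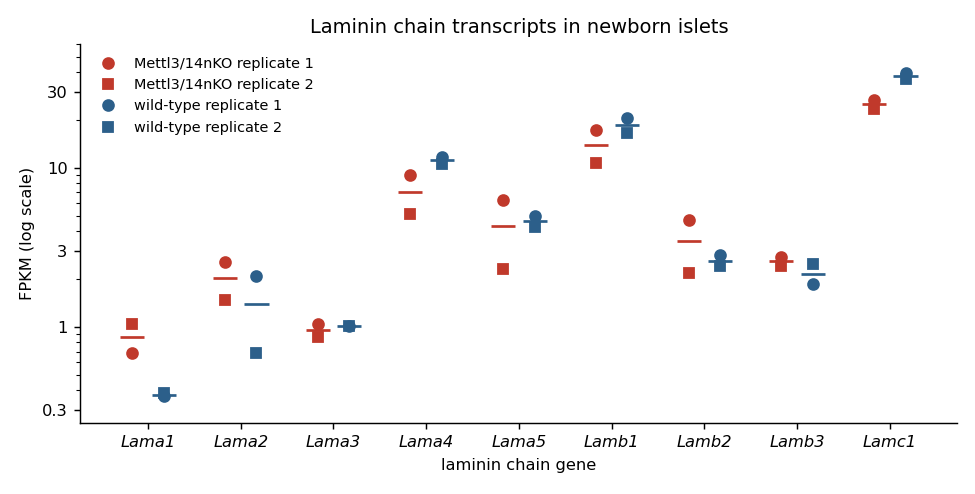
FPKM of the 9 laminin chains (log axis) in the 2 Mettl3/14nKO (red) and 2 wild-type (blue) libraries, with replicate 1 as circles, replicate 2 as squares and group means as bars. Lamc1 is the highest chain in every library (23.4 to 39.4 FPKM), and the 2 Mettl3/14nKO values lie below both wild-type values for Lamc1 and Lama4.

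Of the alpha chains, Lama4 and Lama5 were the main ones. Lama4 (ENSMUSG00000019846, mm10 chr10:38963989-39110188) encodes the alpha 4 chain of vessels and other mesoderm-derived basement membranes. It had 8.98 and 5.13 FPKM in Mettl3/14nKO and 11.7 and 10.6 FPKM in wild-type islets. They rested on 125 and 58 Mettl3/14nKO fragments and 163 and 174 wild-type ones. Both Mettl3/14nKO values lay below both wild-type values, and the fitted log2 fold change was -0.37 (95% interval -0.77 to 0.03, edgeR adjusted p = 0.357). Dropping the first knockout library gave -0.59, dropping the second gave -0.22, and dropping the first wild-type library gave -0.24. Lama5 (ENSMUSG00000015647, chr2:180176373-180225859) encodes the alpha 5 chain, which is found in many epithelial and vascular basement membranes. It had 6.32 and 2.31 FPKM in Mettl3/14nKO and 4.98 and 4.24 FPKM in wild-type islets. The counts behind them were 188 and 50 Mettl3/14nKO fragments and 146 and 146 wild-type ones. Lama5 was the chain with the widest spread between the Mettl3/14nKO libraries relative to its mean, which held both the highest and the lowest of its 4 values. Its log2 fold change of 0.16 (-0.43 to 0.75, edgeR adjusted p = 0.854) turned to -0.60 without Mettl3/14nKO replicate 1 and was 0.57 without replicate 2.

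The 3 other alpha chains stood at or below about 2.6 FPKM. Lama2 (ENSMUSG00000019899, chr10:26981288-27616942) encodes the alpha 2 chain of muscle and peripheral nerve, which is lost in a congenital muscular dystrophy. It had 2.57 and 1.47 FPKM in Mettl3/14nKO and 2.09 and 0.683 FPKM in wild-type islets. Behind these values stood 65 and 27 Mettl3/14nKO fragments and 52 and 20 wild-type ones. The groups overlapped, and the wild-type values lay further apart than those of any other chain relative to their mean. The log2 fold change of Lama2 was 0.81 (-0.12 to 1.74, edgeR adjusted p = 0.398). Without wild-type replicate 1 it was 1.87 and passed (edgeR adjusted p = 0.000708), while without wild-type replicate 2 it was 0.13, so that 1 library decided this value.

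Lama1 (ENSMUSG00000032796, chr17:67697265-67822645) encodes the alpha 1 chain of the embryo's first basement membranes, a chain restricted to few adult tissues. It had 0.686 and 1.05 FPKM in Mettl3/14nKO and 0.369 and 0.383 FPKM in wild-type islets. They rested on 17 and 19 Mettl3/14nKO fragments and 9 and 11 wild-type ones. Both Mettl3/14nKO values were higher than both wild-type values on each scale. The log2 fold change was 1.42 (SE 0.47, 95% interval 0.40 to 2.45), and it did not pass after adjustment over all genes (edgeR adjusted p = 0.138). Leaving out 1 library at a time moved it between 0.98 and 1.87. Lama3 (ENSMUSG00000024421, chromosome 18) encodes the alpha 3 chain of epithelial anchoring complexes. Its level was low in all libraries, with 1.04 and 0.867 FPKM in Mettl3/14nKO and 1.02 and 1.02 FPKM in wild-type islets. Its log2 fold change was 0.15 (-0.54 to 0.84, edgeR adjusted p = 0.891).

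Among the beta chains, Lamb1 was highest in every library. Lamb1 (ENSMUSG00000002900, chr12:31265234-31329644) encodes the broadly expressed beta 1 chain. It had 17.3 and 10.7 FPKM in Mettl3/14nKO and 20.7 and 16.6 FPKM in wild-type islets. The counts behind them were 243 and 100 Mettl3/14nKO fragments and 287 and 274 wild-type ones. The groups overlapped, and the log2 fold change was -0.22 (-0.64 to 0.19, edgeR adjusted p = 0.658). Dropping the first knockout library gave -0.55, dropping the second wild-type library gave -0.44, and dropping either of the others gave -0.00. Lamb2 (ENSMUSG00000052911, chr9:108479862-108490530) encodes the beta 2 chain of the neuromuscular junction and the kidney filter. It had 4.72 and 2.19 FPKM in Mettl3/14nKO and 2.82 and 2.4 FPKM in wild-type islets. Behind these values stood 68 and 23 Mettl3/14nKO fragments and 40 and 40 wild-type ones. Mettl3/14nKO replicate 1 was high and replicate 2 was the lowest library in FPKM, and the log2 fold change was 0.67 (-0.01 to 1.35, edgeR adjusted p = 0.323). It was 0.15 without Mettl3/14nKO replicate 1 and 0.97 without replicate 2.

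Lamb3 (ENSMUSG00000026639, chr1:193301957-193343878) encodes the beta 3 chain, a partner of the alpha 3 chain in the laminin that anchors epidermis. It had 28 and 13 fragments in Mettl3/14nKO islets, against 10 and 11 fragments in wild-type islets, or 23 and 17.5 CPM in the knockout and 7.96 and 6.8 CPM in the wild-type libraries. Both Mettl3/14nKO libraries were higher than both wild-type libraries in CPM, with a log2 fold change of 1.47 (SE 0.42, 0.56 to 2.39, edgeR adjusted p = 0.0801). In FPKM the groups overlapped, with 2.76 and 2.41 in Mettl3/14nKO islets, against 1.85 and 2.48 in wild-type islets. Of the fits with 1 library left out, that without Mettl3/14nKO replicate 1 gave the smallest value, 1.25. Without a filter on low counts, where edgeR tests 16121 genes and calls 2.94% higher, Lamb3 passed (adjusted p = 0.0258). It passed under no other alternative. DESeq2 gave an adjusted p of 0.992, and limma on log2(FPKM + 1) a value of 0.18 (adjusted p = 0.846).

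The starts of the 3 beta chain genes are shown because these chains share a class and differ in level. RefSeq's promoter windows (GRCm38.p6, the same assembly as mm10, read on the strand of each gene, 250 bases before to 50 after the start) matched 5 of the 9 members, namely Lama2, Lama5, Lamb1, Lamb2 and Lamb3. Capitals mark CpG dinucleotides, and the windows printed lie on the plus strand at chr12:31265043-31265342 for Lamb1, chr9:108479612-108479911 for Lamb2 and chr1:193301744-193302043 for the first of 2 annotated Lamb3 starts.
Lamb1: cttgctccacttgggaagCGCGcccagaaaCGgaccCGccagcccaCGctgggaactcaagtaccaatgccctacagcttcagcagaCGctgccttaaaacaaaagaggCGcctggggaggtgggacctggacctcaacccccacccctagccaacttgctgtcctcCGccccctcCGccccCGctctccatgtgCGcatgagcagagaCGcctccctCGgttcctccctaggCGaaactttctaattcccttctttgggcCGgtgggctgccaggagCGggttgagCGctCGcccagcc
Lamb2: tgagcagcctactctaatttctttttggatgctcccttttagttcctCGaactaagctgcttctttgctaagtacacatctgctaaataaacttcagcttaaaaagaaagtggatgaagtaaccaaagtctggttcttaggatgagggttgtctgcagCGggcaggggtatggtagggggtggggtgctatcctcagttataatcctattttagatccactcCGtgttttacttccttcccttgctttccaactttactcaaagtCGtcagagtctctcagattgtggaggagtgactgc
Lamb3: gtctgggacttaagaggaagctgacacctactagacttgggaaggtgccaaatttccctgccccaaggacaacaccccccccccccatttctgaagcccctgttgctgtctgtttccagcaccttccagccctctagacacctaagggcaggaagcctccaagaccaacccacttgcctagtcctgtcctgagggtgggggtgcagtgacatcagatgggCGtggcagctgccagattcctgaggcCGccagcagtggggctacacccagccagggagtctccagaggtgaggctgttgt
The Lamb1 window held 18 CpGs, against 4 in that of Lamb2 and 2 in that of Lamb3, where the median of 32851 promoter windows was 7. Lama5 had 24 and Lama2 had 1. The GC box GGGCGG, searched on both strands and present in 35.7% of all windows, was found in the windows of Lama5 (4 matches), Lamb1 (2) and Lama2 (1), and not in those of Lamb2 and Lamb3. The letters CCAAT, in 37.4% of all windows, occurred in that of Lamb1 (1 match), and TATAAA, in 13.6%, in none of them. These matches describe the letters of the windows and no factor's binding was measured.

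The gamma chain Lamc1 (ENSMUSG00000026478, chr1:153218922-153332786), the partner of most alpha and beta chains, was the most abundant laminin transcript. It had 26.8 and 23.4 FPKM in Mettl3/14nKO and 39.4 and 36.2 FPKM in wild-type islets. They rested on 473 and 194 Mettl3/14nKO fragments and 679 and 767 wild-type ones. Both Mettl3/14nKO values lay below both wild-type values in FPKM and in CPM (389 and 261 CPM in the knockout, 541 and 474 CPM in the wild-type libraries). Its log2 fold change was -0.63 (SE 0.16, 95% interval -0.98 to -0.28), at the margin of the threshold (edgeR adjusted p = 0.0506). The call depended on the libraries and settings. Lamc1 passed without Mettl3/14nKO replicate 1 (-0.95, edgeR adjusted p = 0.000298), without wild-type replicate 2 (-0.73, 0.00314), with upper-quartile factors (0.047, where 3.61% of all genes were called) and without a filter on low counts (0.000104, where 5.32% were called). It did not pass without Mettl3/14nKO replicate 2 (-0.40, edgeR adjusted p = 0.135), without wild-type replicate 1 (-0.53, 0.0717), with DESeq2 (0.102) or with limma on log2(FPKM + 1) (0.368). The value was negative in all of these.

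Lamc3, the gamma 3 chain and not among the 9, was too low for the test, with 10 and 1 fragments in the knockout libraries and 0 and 1 in the wild-type ones. Nearly all of its fragments came from Mettl3/14nKO replicate 1. Over the groups this is a Mettl3/14nKO to wild-type ratio of 16.1 with an exact 95% counting interval of 2.34 to 694, which covers counting error only.

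Within their classes, the shares of Lama4 and Lamb1 were lower in both Mettl3/14nKO libraries than in both wild-type libraries. Those of Lama1, Lama2 and Lamb2 were higher in both, and the shares of a class depend on each other. Lama4 made up 45.8 and 47.4% of the summed alpha chain FPKM in Mettl3/14nKO islets, against 58.1 and 62.5% in wild-type islets, a Mettl3/14nKO minus wild-type difference of -13.7 percentage points. Lamb1 made up 69.8 and 69.9% of the beta chains in Mettl3/14nKO islets, against 81.6 and 77.2% in wild-type islets, where the same difference was -9.59 points. Both differences are larger than the spread between replicates (SD of at most 3.16 and 3.09 points). No test was run on the shares; with 2 libraries a group the exact permutation test for a single value cannot give a two-sided p below 0.333. Lama5 took 32.2 and 21.3% of the alpha chains in Mettl3/14nKO islets, against 24.7 and 25.1% in wild-type islets, which overlap. The difference for Lama5, 1.9 points, was -3.56 points without Mettl3/14nKO replicate 1 and 7.35 points without Mettl3/14nKO replicate 2. Lama2 took 13.1 and 13.6% in Mettl3/14nKO islets, against 10.4 and 4.04% in wild-type islets. Its difference of 6.14 points was 9.29 points without wild-type replicate 1 and 2.98 points without wild-type replicate 2. The least abundant alpha chains also took small shares. Lama1 took 3.5 and 9.74% in the knockout libraries and 1.83 and 2.27% in the wild-type ones, and Lama3 took 5.3 and 8% in the knockout libraries and 5.04 and 6.06% in the wild-type ones. Of the beta chains, Lamb2 took 19.1 and 14.3% in the knockout libraries and 11.1 and 11.2% in the wild-type ones. Lamb3 took 11.2 and 15.8% in the knockout libraries and 7.29 and 11.6% in the wild-type ones, which overlap. Between classes, Lamc1 exceeded Lamb1 in FPKM 1.55 and 2.19 times in Mettl3/14nKO islets, against 1.9 and 2.18 times in wild-type islets, which overlap.

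**Figure D3:**
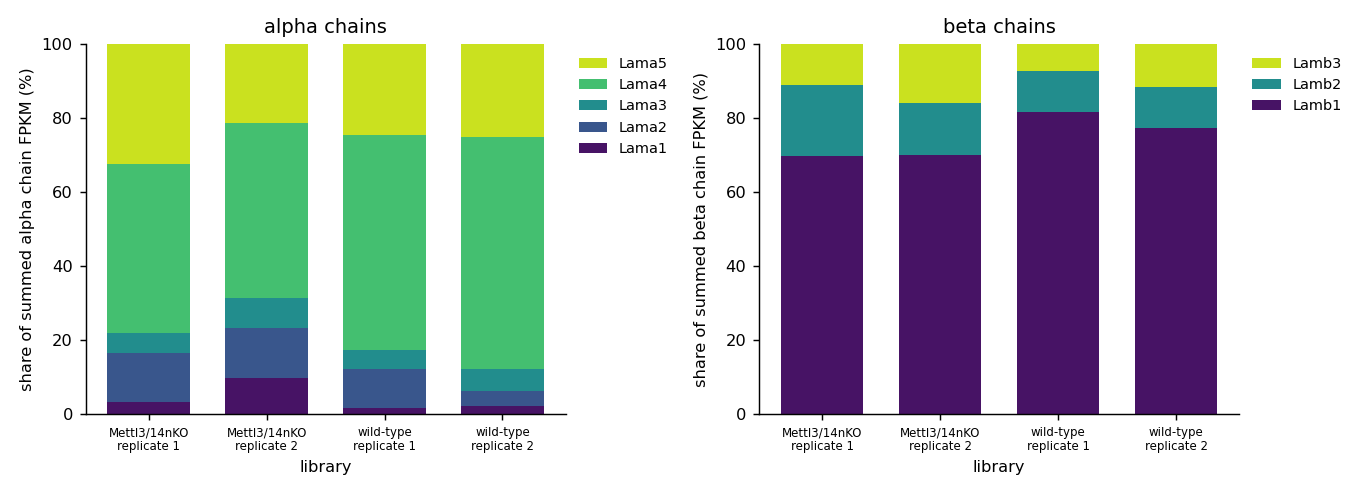
Share of each chain in the summed FPKM of the alpha chains (left) and beta chains (right), in percent, for each library. Lama4 holds 45.8 and 47.4% of the alpha chains in the Mettl3/14nKO libraries against 58.1 and 62.5% in the wild-type libraries, and Lamb1 69.8 and 69.9% of the beta chains in the Mettl3/14nKO libraries against 81.6 and 77.2% in the wild-type libraries.

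The contrast differed most between the fragments and the FPKM for Lamb3. The deposited FPKM run lower in Mettl3/14nKO for the typical gene, with a median log2 fold change of -0.21 over all genes with limma, so that fragments and FPKM are offset from each other. For Lama1, Lama2, Lama3, Lama5 and Lamb2 the CPM per FPKM differed between libraries by the same 1.37-fold. It differed 1.49-fold for Lama4, 1.23-fold for Lamb1 and 1.3-fold for Lamc1. In Mettl3/14nKO replicate 2 the CPM per FPKM of Lamc1 was at its lowest, 11.1, while that of the 1.37-fold chains was at its highest. For Lamb3 it differed 3.04-fold, with 8.33 and 7.25 CPM per FPKM in Mettl3/14nKO islets, against 4.3 and 2.74 in wild-type islets. Its ratio of group means was therefore 2.74 in CPM and 1.19 in FPKM. Lama3 and Lama5, both close to 0, turned from positive in CPM to negative in FPKM (log2 ratios of means 0.15 and -0.10 for Lama3, 0.10 and -0.10 for Lama5). Cufflinks, named in the submitters' processing notes, estimates FPKM over transcript variants, and the part of variant estimates in the Lamb3 difference was not tested.

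**Figure D4:**
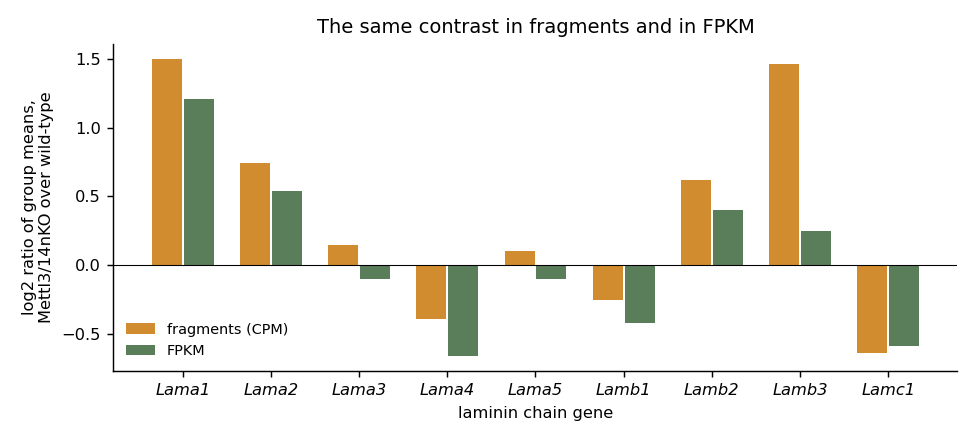
Log2 ratio of group means, Mettl3/14nKO over wild-type, in fragments (CPM, orange) and in FPKM (green) for the 9 laminin chains. Lamb3 stands at 1.46 in CPM and 0.25 in FPKM, the widest gap of the 9. Lamb2 (0.62 and 0.40) is lower in FPKM, and Lamc1 (-0.64 and -0.59) is close on both scales.

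The laminin mRNAs share a great length and many exons. The longest GENCODE protein-coding transcripts of the 9 chains ran from 4867 bases for Lamb3 to 11388 bases for Lama5, where the median of the tested genes was 3446. Their exons numbered 27 for Lamb3 to 79 for Lama5, against a median of 10. The pentamer GGACT, a form of the m6A consensus, was counted on the transcript strand. Its density per kilobase was 1.89 in Lama1, 0.624 in Lama2, 1.23 in Lama3, 0.662 in Lama4 and 1.23 in Lama5. It was 1.21 in Lamb1, 1.42 in Lamb2, 1.44 in Lamb3 and 0.656 in Lamc1, where the median of tested genes was 1.04. Of the 9 chains, Lama2, Lama4 and Lamc1 lay below that median. No methylation was measured, so these counts describe sequence. Exons of Lama2 and Lama3 overlap an annotated antisense gene, and no source used here gives the strand setting of the counting, so their fragments may include antisense RNA.

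Of 13 tested partners of laminin in the basement membrane 1 rose and 0 fell, with a median log2 fold change of 0.08, where 3.67% of all genes were called. As so few genes were called, the counts of these short lists say little about them. The one that rose was Sparc, a collagen-binding matrix protein that many stromal cells secrete, with 307 and 158 FPKM in Mettl3/14nKO and 173 and 134 FPKM in wild-type islets (0.82, SE 0.20, edgeR adjusted p = 0.0436). In FPKM its groups overlapped, and it was not called without Mettl3/14nKO replicate 1 (0.44, edgeR adjusted p = 0.166) or with DESeq2 (0.95), limma (0.548) or the deposited counts rounded (edgeR adjusted p = 0.0552). Agrn, which links laminin to dystroglycan, had a log2 fold change of 0.54 (edgeR adjusted p = 0.0872), and the perlecan gene Hspg2 of -0.46 (0.221). Hspg2 passed when the first knockout library was dropped (-0.80, edgeR adjusted p = 0.00256), when the second wild-type library was dropped (-0.66, 0.00782) and without a filter on low counts (0.00506). Its value was -0.21 when the second knockout library was dropped and -0.25 when the first wild-type library was. Col4a1, a chain of the main collagen of basement membranes, had 104 and 65.8 FPKM in Mettl3/14nKO and 137 and 106 FPKM in wild-type islets (-0.29, 0.471).

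Of 14 tested laminin receptors 1 rose and 0 fell, with a median of 0.06, where 2.08% of all genes rose and 1.6% fell. The one that rose was Rpsa (0.59, SE 0.13, edgeR adjusted p = 0.0244), with 987 and 796 CPM in Mettl3/14nKO and 600 and 587 CPM in wild-type islets. In FPKM its groups overlapped, with 272 and 184 in the knockout libraries, against 174 and 187 in the wild-type ones. Rpsa is foremost a ribosomal protein, and it has processed copies in the genome between which fragments may be split uncertainly. It passed with DESeq2 (0.0199), and not without Mettl3/14nKO replicate 1 (edgeR adjusted p = 0.096) or wild-type replicate 2 (0.0526), nor with limma (0.624). The integrin subunit genes Itga2 and Itga1, collagen and laminin receptors, had log2 fold changes of -0.88 and 0.44 (edgeR adjusted p = 0.257 and 0.291), and the syndecan gene Sdc3 of -0.39 (0.187). Itga6 and Itgb1, subunits of the main laminin-binding integrins of beta cells and chosen here after their values were seen, had -0.33 (edgeR adjusted p = 0.344) and -0.15 (0.628). Itga6 had 21.4 and 27.3 FPKM in Mettl3/14nKO and 40.4 and 39 FPKM in wild-type islets.

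Of 13 tested genes of the dystroglycan complex and of the enzymes that build its laminin-binding sugar, 0 rose and 1 fell, with a median of 0.13. Among all genes 2.08% rose and 1.6% fell, so this count says little about the list. Of the 16 listed genes 15 were matched. The gene that fell is listed as B3gnt1, an older symbol of B4gat1, whose enzyme primes that sugar chain. It had 0 and 0 fragments in the knockout libraries and 12 and 14 in the wild-type ones, at least 5.91-fold lower when set against a floor of 3 fragments over the Mettl3/14nKO libraries (edgeR adjusted p = 0.0206). Its exons overlap those of another protein-coding gene on the same strand, so its fragments are uncertain, and it was not called with DESeq2 (0.201), without Mettl3/14nKO replicate 1 (edgeR adjusted p = 0.144) or without Mettl3/14nKO replicate 2 (0.0541). Utrn, the utrophin gene, had a log2 fold change of 0.44 (edgeR adjusted p = 0.064) and Sntb1, a syntrophin gene, of 2.25 (0.0734). Both passed without a filter on low counts (edgeR adjusted p = 0.0223 and 0.0387), where 5.32% of all genes were called. Neither passed under any other alternative. The adjusted p was 0.275 for Utrn and 0.779 for Sntb1 with DESeq2, and 0.764 and 0.262 with limma on log2(FPKM + 1).

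Markers of some cell types that are known to make laminins differed between the groups. The summed CPM of the pericyte and smooth muscle, mesothelial and acinar lists overlapped. For comparison, 2.08% of all 10969 genes tested rose and 1.6% fell, and small counts in the shorter lists say little about them. Of 15 tested endothelial markers 8 fell and 0 rose, and their sum was 543 and 352 CPM in Mettl3/14nKO islets, against 1489 and 1210 CPM in wild-type islets. Of 14 tested mesenchymal markers 7 rose and 0 fell, with 10407 and 7654 CPM in the knockout and 5355 and 3488 CPM in the wild-type libraries. Of 9 tested pericyte and smooth muscle markers 2 rose and 0 fell (680 and 501 CPM in the knockout and 612 and 441 CPM in the wild-type libraries). Of 9 tested duct and epithelial markers 2 rose and 4 fell, with 1003 and 1056 CPM in the knockout and 1412 and 1494 CPM in the wild-type libraries. Of 7 tested Schwann cell markers 2 rose and 0 fell (290 and 323 CPM in the knockout and 260 and 250 CPM in the wild-type libraries). Leukocyte markers had 7 members that rose and 0 that fell among 14 tested (383 and 691 CPM in the knockout and 60.5 and 130 CPM in the wild-type libraries). Mesothelial markers summed to 209 and 55.1 CPM in the knockout and 31.9 and 69.2 CPM in the wild-type libraries and acinar markers to 58.4 and 96.8 CPM in the knockout and 81.2 and 91.5 CPM in the wild-type libraries, with 0 called of 2 and 3 tested. No marker of any of these lists was at 0 in all 4 libraries, while Ptf1a was at 0 in both Mettl3/14nKO libraries. Beside these lists, 6 of the 9 laminin chains had positive and 3 negative fitted values, and none passed. The part of these cell types in the laminin values was not tested.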

How the data were processed

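Islet RNA of 4 libraries was compared, 2 labelled Mettl3/14nKO and 2 wild-type, grouped and numbered as their titles give. Paired-end libraries came from ribosome-depleted RNA with a strand-aware kit, per the labels. Cuffdiff, Cufflinks, HISAT2 2.0.4, cutadapt 1.9.3 and build mm10 appear in the submitters' processing notes. No source used here states the annotation, the filters or the strand setting. FPKM, per the file headers, and estimated counts were deposited by the authors in 1 table of 22564 genes.

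The estimated counts are not whole. In each library 92.3 to 93.3% of values above 0 are a library-specific step times a whole number, to a tolerance of 0.01 (0.968 and 1.33 for Mettl3/14nKO, 0.982 and 0.835 for wild-type). They were divided by the step and rounded to give fragments. CPM scale fragments to the library total.

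The test was edgeR 4.0.16 (quasi-likelihood, TMM factors, filterByExpr) in R 4.3.3, two-sided, with Benjamini-Hochberg adjustment over 10969 genes at 0.05, and intervals at 95%. "Rose" and "fell" refer to this test. DESeq2 1.42.0, limma 3.58.1 on log2(FPKM + 1) or log2(FPKM + 0.1), other factors, no filter, a replicate block and leaving out each library were the alternatives, 14 in all. On simulated fragments of this comparison (10727 genes), edgeR called 54% of 2-fold and 89% of 4-fold changes and 11 unchanged genes. Low counts limit Lama1, Lama3 and Lamb3, which had 56, 104 and 62 fragments in all. The files' starts were read as 0-based and printed 1-based. The 9 members and all lists were chosen with earlier results of these data known. All members were named, with up to 4 genes a list by smallest edgeR p, except a few items that are not reported here. Tables and counting intervals came from Python 3.11.15 with scipy 1.17.1, pandas 2.3.3 and numpy 2.4.6.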

Additional observations from a re-analysis of the deposited data

How the results depend on the processing

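The count of laminin chains called was 0 in both directions with edgeR on all libraries. It was 1 lower (Lamc1) with upper-quartile factors, 1 lower (Lamc1) and 1 higher (Lamb3) without a filter on low counts, and 0 to 1 in each direction when 1 library was left out (Lama2 higher without wild-type replicate 1, and Lamc1 lower when either Mettl3/14nKO replicate 1 or the second wild-type library was dropped). Genes called over the whole table numbered 228 higher and 175 lower. They numbered 474 and 383 without a filter, 93 and 50 with DESeq2, and 0 and 0 with limma on log2(FPKM + 1), with or without a filter, and on log2(FPKM + 0.1) with the filter. Leaving out 1 library gave 167 to 336 higher and 160 to 246 lower. With the replicate number as a block, 217 genes were higher and 168 lower, and 1 laminin chain was called lower, Lamc1 (-0.66, edgeR adjusted p = 0.0196). The labels do not say that the numbers pair the samples. Same-numbered deviations correlated at 0.0236 across genes, a single value that cannot exclude a pairing. The block changed no other call among the laminin chains.

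Values close to 0 changed sign. Lama5 (0.16) was -0.19 with limma on log2(FPKM + 1), with or without a filter, -0.26 with a pseudocount of 0.1, and -0.60 to 0.57 when 1 library was left out. Lama3 (0.15) was -0.05 with limma without a filter. Mettl3 (-0.25) was -0.91 to 0.26 when 1 library was left out. The causes were not tested. The direction of the fitted value held for Lama1, Lama2, Lama4, Lamb2, Lamb3 and Lamc1 under every alternative that gave a value, while Lamb1 ranged from -0.55 to -0.00. The Mettl3/14nKO minus wild-type difference in share, in percentage points, stayed negative for Lama4 (-15.9 to -11.5) and Lamb1 (-12.1 to -7.40) when taken from fragments or with 1 library left out. That of Lama5 (1.9) was -0.606 from fragments and -3.56 to 7.35 with 1 library left out. Where 1 library is left out, the lone library of its group is assumed to vary like the other group.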
